A study of Mus musculus with 4 samples.

Results

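Airway mucins and the goblet cell program were followed through 10 genes of the deposited expression table, which holds 21931 genes: Muc5b, Muc5ac, Spdef, Foxa3, Agr2, Clca1, Fcgbp, Slc26a4, Itln1 and Tmc5. They were taken by name, as gel-forming mucins, transcription factors of goblet cells and goblet cell products, and all 10 had a row. RNA sequencing was performed on whole lung of C57BL6 mice at 2 months of age, which received no further treatment. There were 2 libraries labelled Dnah9 knockout, 1 library whose genotype reads Hez, a label left unexplained and kept as it is, and 1 wild-type library. The labels do not give the knockout allele, the sex, the litter or whether animals were pooled. Total reads lay between 15860478 and 16553480 per library.

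Mucus in the airways is a gel of polymeric mucins, which goblet cells and mucous club cells store in granules and release onto the ciliated surface. In mouse airways Muc5b is the mucin made at rest, whereas Muc5ac and many goblet cell products are made in quantity after allergen or interleukin-13. Spdef, an ETS-family factor, and Foxa3, a forkhead factor, drive goblet cell differentiation in mice. Dnah9 encodes a motor protein of the outer dynein arms, which move cilia. It stood at 14.8 and 16.0 CPM (read counts brought to a common library total, after TMM scaling) in the knockout libraries, 25.4 in Hez and 56.6 in wild type, so both knockout libraries were alike in the targeted gene.

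The 10 genes did not form a single pattern. Muc5b and Tmc5 were lower in both knockout libraries and in Hez than in wild type, as were 25.2% of all genes tested. Clca1, Fcgbp, Slc26a4, Agr2, Spdef, Muc5ac and Foxa3 differed between the knockout libraries by 2.16-fold to 79.3-fold, with knockout 2 the higher. Knockout 2 was the highest of the 4 libraries for these 7 of the 9 genes tested, and for 26.4% of all genes tested. For Spdef (52 reads in both) and Foxa3 (19 against 18 reads), knockout 2 and wild type differed by no more than counting error. The Hez library lay below wild type for all 9 genes that could be tested, and for 50.5% of all genes. Itln1, which encodes a lectin of mucus-producing cells, had 0 and 2 reads in knockout libraries 1 and 2, 4 in Hez and 1 in wild type, and was removed by the filter on low counts. A count of 0 in knockout 1 allows up to 0.184 CPM (3 reads), and no fold is given for it.

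**Figure D1:**
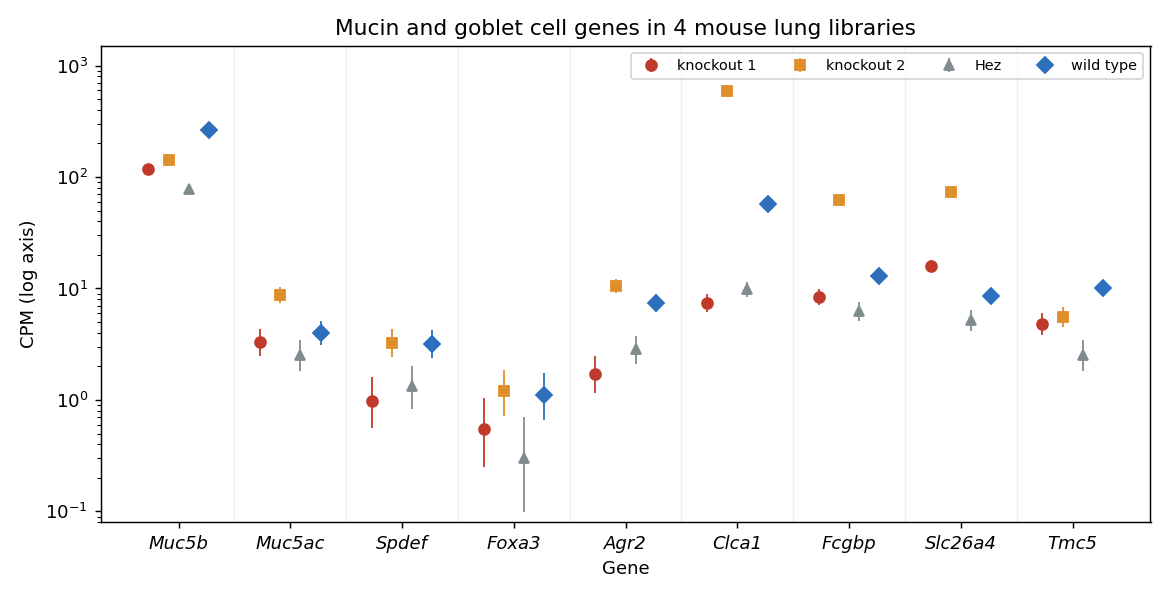
Level of 9 genes in CPM on a log axis, 1 point per library (knockout 1, knockout 2, Hez, wild type), with 95% exact Poisson intervals that cover counting error only; Itln1, with at most 4 reads, is left out. Clca1 ran from 7.44 CPM in knockout 1 to 590 CPM in knockout 2, while Muc5b was highest in wild type, at 267 CPM.

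Of the 9 genes tested, 0 passed an adjusted p of 0.05 in the edgeR quasi-likelihood test of knockout against wild type, where 0.0531% of all 15055 genes passed, and 3 (Muc5b, Tmc5 and Slc26a4) had an unadjusted p below 0.05, against 5.18% of all genes. Limma-voom called 1 of the 9, Muc5b, where it called 0.0598% of all genes. DESeq2 gave an adjusted p for 4 of the 9 (Muc5b, Clca1, Fcgbp and Slc26a4), since it leaves out genes of low mean count, and called 1 of these, Muc5b, where it called 0.179% of 8925 genes. The filter let a gene through when a single library was high enough, and Foxa3 passed it with 5 to 19 reads. Wild type and Hez have 1 library each, so every test against 1 of them takes its spread from the knockout libraries and the trend of all genes. Between the knockout libraries 7 of the 9 genes differed by more than 2-fold in CPM, Foxa3 by 2.16-fold on 9 and 19 reads. On log2 CPM with a prior count of 2, Foxa3 stood at 0.96, short of 2-fold. By that measure 590 of 15055 genes differed by more than 2-fold in either direction. Without knockout 2, 8 of the 9 had a log2 fold below 0 against wild type, without knockout 1 only 2 (Muc5b and Tmc5), and with both libraries 5, where 48.9% of all genes lay below 0.

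Muc5b (ENSMUSG00000066108) lies on chromosome 7 from 141392807 to 141426821 on GRCm39, just downstream of Muc5ac (ENSMUSG00000037974, 141342709 to 141372968) on the same strand. Muc5b had 1930 and 2274 reads in knockout libraries 1 and 2, 1290 in Hez and 4325 in wild type. This corresponded to 119 CPM (95% exact Poisson interval 113 to 124) and 143 CPM (137 to 149) in the knockout libraries, 78.04 (73.8 to 82.4) in Hez and 267 (259 to 275) in wild type. The knockout libraries lay close together, below wild type and above Hez. The log2 fold of knockout over wild type was -1.03 (SE 0.125, n = 2 against 1, edgeR adjusted p = 0.0575), rank 9 of 15055 genes by p and just short of the threshold. It passed with DESeq2 size factors (edgeR adjusted p = 0.0498), with DESeq2 (adjusted p = 1.04e-05), with limma-voom (adjusted p = 0.0308) and without the Hez library (edgeR adjusted p = 0.0408). Limma on log2 FPKM did not call it, and adjusted p over all alternatives with both knockout libraries reached 0.820.

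Against Hez, Muc5b was higher in knockout, with a log2 fold of 0.75 (SE 0.134, n = 2 against 1, edgeR adjusted p = 0.477), which did not pass. Against wild type and Hez together the fold was -0.40 (SE 0.450, n = 2 against 2, edgeR adjusted p = 0.981). Wild type lay above the knockout libraries and Hez below them. Without wild type that fold was 0.74, and without Hez it was -1.03. All 3 libraries other than wild type thus had a lower Muc5b level than the single wild-type library.

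Muc5ac, the inducible gel-forming mucin, had 54 and 140 reads in knockout libraries 1 and 2, 42 in Hez and 65 in wild type. Knockout 2 stood at 8.81 CPM (7.41 to 10.4), apart from knockout 1 (3.32, 2.49 to 4.33), Hez (2.54, 1.83 to 3.43) and wild type (4.01, 3.10 to 5.11), whose intervals overlapped. The log2 fold over wild type was 0.59 (SE 0.553, edgeR adjusted p = 0.996), and did not pass. Per gene length, Muc5b exceeded Muc5ac by 25.7-fold and 11.7-fold in FPKM in knockout libraries 1 and 2, by 22.1-fold in Hez and by 47.8-fold in wild type. Muc5b was the main gel-forming mucin of the pair in all 4 libraries, and the ratio was lowest in knockout 2 and highest in wild type.

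Spdef (ENSMUSG00000024215, chromosome 17, 27933326 to 27947929) had 16 and 52 reads in knockout libraries 1 and 2, 22 in Hez and 52 in wild type. Its level was 0.983 CPM (0.562 to 1.597) in knockout 1 and 3.27 (2.44 to 4.29) in knockout 2, against 1.33 (0.834 to 2.01) in Hez and 3.21 (2.396 to 4.21) in wild type. Knockout 2 and wild type were thus alike, and knockout 1 and Hez were alike at a lower level. Foxa3 (ENSMUSG00000040891, chromosome 7, 18747209 to 18757463) had the same order of pairs at very low counts, with 9 and 19 reads in knockout libraries 1 and 2, 5 in Hez and 18 in wild type. At that depth the intervals of the libraries overlapped, except those of Hez (0.0982 to 0.706 CPM) and knockout 2 (0.720 to 1.87 CPM). The log2 folds over wild type were -0.59 for Spdef (SE 0.662) and -0.35 for Foxa3 (SE 0.775), each with an edgeR adjusted p = 0.996.

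Agr2, a protein disulfide isomerase of the endoplasmic reticulum that mucin production requires in mice, followed Spdef. It (ENSMUSG00000020581, chromosome 12, 36042906 to 36054086) had 28 and 168 reads in knockout libraries 1 and 2, 47 in Hez and 121 in wild type, which gave 1.72 CPM in knockout 1, 10.6 in knockout 2, 2.84 in Hez and 7.47 in wild type. The level in knockout 2 was 6.14-fold that in knockout 1, and the interval of knockout 2 (9.03 to 12.3 CPM) lay just above that of wild type (6.20 to 8.92 CPM). The log2 fold of knockout over wild type was -0.28 (SE 0.765, edgeR adjusted p = 0.996) and turned to 0.50 without knockout 1 and to -2.11 without knockout 2.

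Clca1 (ENSMUSG00000028255, chromosome 3, 144709578 to 144738537), a secreted goblet cell protein strongly induced by interleukin-13 in mouse airways, differed most of the 10 genes. It had 121 and 9379 reads in knockout libraries 1 and 2, 162 in Hez and 923 in wild type. Knockout 2 stood at 590 CPM (578 to 602), against 7.44 in knockout 1 (6.17 to 8.89), 9.80 in Hez (8.35 to 11.4) and 57.0 in wild type (53.3 to 60.8). The 2 libraries of the knockout label thus enclosed both other libraries. Clca1 took 65.7% of the reads of the 10 genes in knockout 2, against 4.59% in knockout 1, 8.99% in Hez and 15.3% in wild type. Per gene length its level was 16.3 times that of Muc5b in knockout 2, against 0.248 times in knockout 1, 0.498 times in Hez and 0.846 times in wild type. The log2 fold of knockout over wild type was 2.39 (SE 1.68, edgeR adjusted p = 0.996), and without knockout 2 it turned to -2.94. Limma, which averages log values, gave the same Clca1 fold as 0.20 with limma-voom and as 0.23 to 0.42 on log2 FPKM.

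Fcgbp (ENSMUSG00000047730, chromosome 7, 27770661 to 27820287) encodes a mucus protein with von Willebrand factor type D domains, as in the gel-forming mucins. It had 137 and 984 reads in knockout libraries 1 and 2, 103 in Hez and 208 in wild type, which gave 8.42 CPM in knockout 1, 61.9 in knockout 2, 6.23 in Hez and 12.8 in wild type. Knockout 2 was 7.35-fold above knockout 1 and 4.82-fold above wild type. The log2 fold of knockout over wild type was 1.45 (SE 0.898, edgeR adjusted p = 0.996) and without knockout 2 it was -0.61. With limma-voom this Fcgbp fold was 0.82, and on log2 FPKM it was 0.66 to 0.80.

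Slc26a4 (ENSMUSG00000020651, chromosome 12, 31569826 to 31609968) encodes pendrin, an exchanger of chloride for bicarbonate and other anions in the apical membrane. It was the single gene of the set for which both knockout libraries lay above both other libraries, a pattern shown by 17.5% of all genes tested. It had 261 and 1173 reads in knockout libraries 1 and 2, 86 in Hez and 140 in wild type. The corresponding levels were 16.0 CPM (14.2 to 18.1) and 73.8 (69.6 to 78.1) in the knockout libraries, 5.20 (4.16 to 6.42) in Hez and 8.64 (7.27 to 10.2) in wild type. The log2 fold was 2.38 over wild type (SE 0.777, edgeR adjusted p = 0.749), 3.11 over Hez (SE 0.830, adjusted p = 0.768) and 2.69 over both together (SE 0.640, adjusted p = 0.632). It stayed positive without either knockout library, at 0.89 to 3.09 over wild type. With limma-voom the Slc26a4 fold over wild type was 1.98, and on log2 FPKM it was 1.70 to 1.95.

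Promoter sequences are shown for the 3 genes that differed by more than 4-fold between the knockout libraries and have an entry in the RefSeq promoter table, which covers 6 of the 10 genes. Each is the 250 bases before the RefSeq start on build GRCm38.p6, read 5′ to 3′ on the gene's strand, and these coordinates differ from those of the expression table. Capitals mark matches to TATANA, where N is any base, on either strand.
Fcgbp, chr7:28070986-28071235, plus strand: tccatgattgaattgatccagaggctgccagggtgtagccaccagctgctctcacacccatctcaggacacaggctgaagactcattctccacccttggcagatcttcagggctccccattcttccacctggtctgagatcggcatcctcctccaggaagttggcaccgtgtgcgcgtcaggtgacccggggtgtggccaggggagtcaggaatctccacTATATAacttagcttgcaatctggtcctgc
Slc26a4, chr12:31559985-31560234, minus strand: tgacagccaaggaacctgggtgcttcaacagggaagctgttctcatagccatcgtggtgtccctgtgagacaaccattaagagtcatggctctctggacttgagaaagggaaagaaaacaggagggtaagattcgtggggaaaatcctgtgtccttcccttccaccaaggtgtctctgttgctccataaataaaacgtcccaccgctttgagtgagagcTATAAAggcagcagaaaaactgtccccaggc
Agr2, chr12:35992675-35992924, plus strand: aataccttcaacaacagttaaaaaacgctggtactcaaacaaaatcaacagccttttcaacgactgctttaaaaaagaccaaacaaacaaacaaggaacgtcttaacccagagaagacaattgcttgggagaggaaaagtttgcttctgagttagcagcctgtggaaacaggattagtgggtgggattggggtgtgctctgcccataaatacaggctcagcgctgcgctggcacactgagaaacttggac
The match began 30 bases before the start in Fcgbp (TATATA on both strands) and 31 bases before it in Slc26a4 (TATAAA), and 22.6% of 32851 promoter windows held this motif. Agr2 had no match. Bases shortly after the start were found in an annotated transcript of the gene for Agr2, but not for Fcgbp and Slc26a4. The distances in Fcgbp and Slc26a4 thus rest on the RefSeq start alone. Searched on both strands, a forkhead motif (TGTTTAC, in 3.17% of windows; TGTTTGC, in 4.3%), a STAT6 motif (TTC, any 4 bases, then GAA, in 5.85%) and an ETS motif of the Spdef kind (CCGGATG, in 1.79%) had no match in the windows of any of the 6 genes. The motifs do not overlap in the windows shown, and no match says only that these letters are not in this window.

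Tmc5 (ENSMUSG00000030650, chromosome 7, 118196520 to 118274309) encodes a member of the transmembrane channel-like family. It had 78 and 89 reads in knockout libraries 1 and 2, 42 in Hez and 164 in wild type, which gave 4.79 CPM in knockout 1, 5.60 in knockout 2, 2.54 in Hez and 10.1 in wild type. The knockout libraries lay together between Hez and wild type, as for Muc5b. The log2 fold was -0.96 over wild type (SE 0.293, edgeR adjusted p = 0.677) and 1.03 over Hez (SE 0.343, edgeR adjusted p = 0.912), and neither passed. Both knockout libraries below wild type was a pattern of 2 of the 9 genes tested, Muc5b and Tmc5, and of 33.4% of all genes. Both above wild type was a pattern of 1 gene, Slc26a4, and of 33% of all genes.

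**Figure D2:**
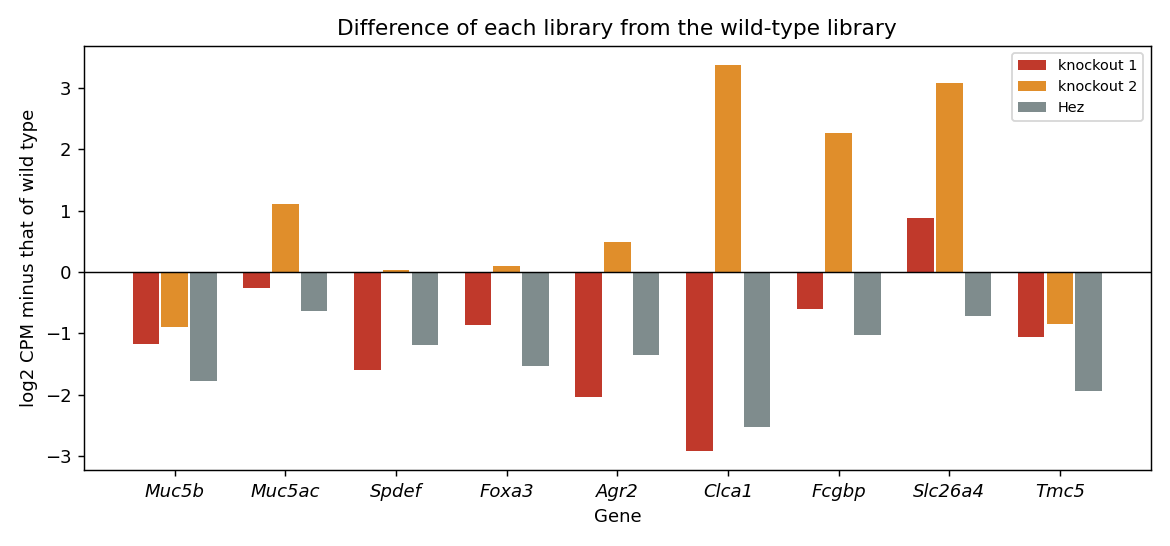
Difference of log2 CPM (prior count 2) from the wild-type library for 9 genes, with bars for knockout 1, knockout 2 and Hez; each bar is 1 library against 1 library. All Hez bars lie below 0, from -0.63 for Muc5ac to -2.52 for Clca1, whereas the knockout bars point apart for 6 genes and together for Muc5b, Tmc5 and Slc26a4.

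Within the knockout label, knockout 2 lay above knockout 1 for all 9 genes, where the median difference of log2 CPM over all genes was 0.00179. Knockout 2 was higher by more than 1.5-fold for 7 of the 9, against 4.71% of all genes. This sets 2 libraries of 1 group side by side, and has no test. The difference of log2 CPM was 6.29 for Clca1, 2.86 for Fcgbp, 2.54 for Agr2 and 2.19 for Slc26a4. It was 1.62 for Spdef, 1.38 for Muc5ac and 0.96 for Foxa3, and smaller for Muc5b (0.27) and Tmc5 (0.22). Ranked from the top among 15055 genes, Clca1 was 2nd, after the chitinase-like gene Chil4, Fcgbp was 11th, Agr2 18th and Slc26a4 33rd. In all, 6 of the 9 lay above the 99th percentile of all genes (1.27). Knockout libraries 1 and 2 had like totals of 16382227 and 15860478 reads and TMM factors of 0.993 and 1.002.

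**Figure D3:**
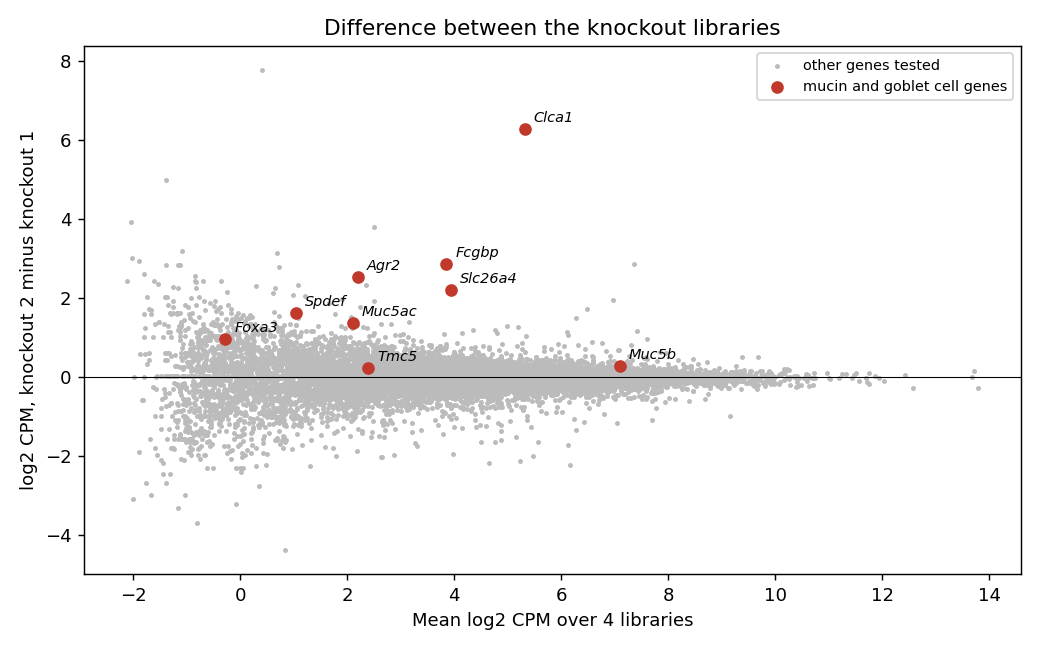
Difference of log2 CPM, knockout 2 minus knockout 1, against the mean log2 CPM over the 4 libraries for 15055 genes in grey, with the 9 mucin and goblet cell genes in red. Clca1 lies at 6.29, far above genes of like level, while Muc5b (0.27) and Tmc5 (0.22) lie within the grey cloud.

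In the comparison of knockout with Hez, 0 of the 9 genes passed in edgeR, DESeq2 or limma-voom, where 0.00664% of all genes passed in edgeR, 0.0465% in DESeq2 and 0.00664% in limma-voom, and 5 had an unadjusted p below 0.05 in edgeR, against 4.61% of all genes. All 9 log2 folds were above 0, where 47.5% of all genes lay below 0. Both knockout libraries lay above Hez for 6 of the 9, a pattern of 34.2% of all genes. Clca1 had a log2 fold of 4.93 (SE 2.02, edgeR adjusted p = 0.9997) and Fcgbp one of 2.49 (SE 0.983, edgeR adjusted p = 0.9997). With limma-voom the fold over Hez was 2.73 for Clca1 and 1.86 for Fcgbp. Without knockout 2, the folds of Clca1 (-0.40), Spdef (-0.43) and Agr2 (-0.72) lay below 0.

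Against wild type and Hez together, 0 of the 9 passed in edgeR or limma-voom, where 0.0136% of 14674 genes passed in edgeR and 0.00681% in limma-voom. DESeq2 gave an adjusted p for 3 of the 9 (Muc5b, Clca1 and Slc26a4) and called 0 of these, where it called 0.421% of 7846 genes. An unadjusted p below 0.05 was found for 2 (Fcgbp and Slc26a4), against 5.05% of all genes. Clca1 had a log2 fold of 3.16 (SE 1.47, edgeR adjusted p = 0.975) and Fcgbp one of 1.88 (SE 0.770, edgeR adjusted p = 0.975). Without knockout 1, the remaining knockout library was set against the spread of wild type and Hez, and 3 of the 9 then passed, where 0.715% of 14971 genes passed. They were Clca1 (4.14, adjusted p = 0.00229), Fcgbp (2.70, adjusted p = 0.000211) and Slc26a4 (3.41, adjusted p = 3.51e-06), and this assumes that the lone library varies like the others. Without knockout 2, 0 of the 9 passed, where 0.16% of 14988 genes passed, and the folds were -2.16 for Clca1 and -0.18 for Fcgbp. With limma-voom and both knockout libraries the folds were 1.48 for Clca1 and 1.34 for Fcgbp. The 3 comparisons share the knockout libraries, and the last shares wild type and Hez with the others.

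The Hez library was lower than wild type by more than 1.5-fold for all 9 genes tested, against 6.84% of all genes on that side, and for 5 of them it lay below the 1st percentile of all genes (-1.34). With 1 library a group there is no test. The Hez level relative to wild type was 17.2% for Clca1, 25.1% for Tmc5, 27.2% for Foxa3, 29.2% for Muc5b, 38.1% for Agr2 and 41.5% for Spdef. It was 48.5% for Fcgbp, 60.2% for Slc26a4 and 63.3% for Muc5ac. Knockout 1 was also lower than wild type by more than 1.5-fold for 7 of the 9, against 6.5% of all genes.

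Markers of other airway cells were read beside these genes. All 10 club cell markers, a list that also holds Muc5b, were lower in Hez than in wild type, with a median difference of -0.68, and all 10 log2 folds of knockout over wild type were below 0, with a median of -0.62. Over all genes those medians were -0.00224 and 0.00449. The summed level of the list was 20587 and 17832 CPM in the knockout libraries, 19681 in Hez and 24818 in wild type. Of it, 3 genes passed as lower in knockout than in the single wild-type library in edgeR, where 0.0531% of all genes passed. They were Scgb3a1 (log2 fold -1.06, edgeR adjusted p = 0.00864), Bpifa1 (-1.33, adjusted p = 0.0210) and Scgb3a2 (-0.88, adjusted p = 0.0365). Limma on log2 FPKM called 0 of the list. Against Hez these folds were 0.40, -0.09 and 0.15, and 0 of the list were called. Against wild type and Hez together only DESeq2 called a gene of the list, Cyp2f2, where it called 0.421% of 7846 genes. All 8 multiciliated cell markers lay lower as well, with medians of -0.62 in Hez and -0.49 in knockout. Of all genes, 50.5% lay below wild type in Hez and 48.9% in knockout. In knockout against wild type 0 of the 8 were called in edgeR, DESeq2 or limma-voom. An unadjusted p below 0.05 was found for 7, against 5.18% of all genes. Cdhr3 (-0.60, edgeR adjusted p = 0.248), Foxj1, the master factor of motile cilia (-0.55, adjusted p = 0.273), and Ccdc153 (-0.53, adjusted p = 0.323) had the smallest p. The list's summed level was 2041.5 and 2061 CPM in the knockout libraries, 2056 in Hez and 2413 in wild type. In whole lung, fewer cells of a type and less RNA per cell cannot be told apart, and the part of airway cell content in the Muc5b difference was not tested. Muc5b reads per Scgb1a1 read, the main club cell secretoglobin, were 0.00803 and 0.0118 in the knockout libraries, 0.00584 in Hez and 0.0160 in wild type. That ratio depends on the club cell gene taken. The log2 fold of knockout over wild type was -0.32 for Scgb1a1, but -1.06 for Scgb3a1 and -1.03 for Muc5b.

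The median difference of knockout 2 from knockout 1 was -0.02 for club cells and 0.02 for multiciliated cells. Bpifb1, a secreted airway defence protein of the club cell list, was an exception with 3667 reads in knockout 2 and 1681 in knockout 1. Basal cell markers were sparse (3 of 6 tested, 4.17 to 5.99 CPM in sum), and tuft cell markers summed to 22.1 CPM in knockout 2, 17.9 in knockout 1, 14.4 in Hez and 20.7 in wild type, with 0 called in edgeR or limma-voom and 0 at an unadjusted p below 0.05 in either list in knockout against wild type. In knockout against Hez the tuft cell marker Dclk1 had an unadjusted p = 0.0315 (edgeR adjusted p = 0.9997). Of 8 submucosal gland genes 4 were tested and Dcpp1, Dcpp2 and Dcpp3 had 0 reads in all libraries. Of 6 intestinal goblet cell genes, Tff3 and Clca4b had 0 reads throughout, and the list summed to at most 1.91 CPM. Alveolar type 2 markers had a median fold over wild type of 0.19 (6 of 6 above 0) and alveolar type 1 markers one of 0.07. In these 4 lists edgeR and limma-voom called 0 genes in knockout against wild type, with 2, 0, 4 and 0 at an unadjusted p below 0.05. Of all genes, 5.18% had such a p, and 48.9% had a fold below 0. Against wild type and Hez together DESeq2 called Lyz1 of the gland list, where it called 0.421% of 7846 genes. Whether the Lyz1 reads came from gland cells was not tested. By smallest p, the log2 folds over wild type in the gland list were -0.79 for Ltf (lactotransferrin), 0.36 for Lyz1 (a lysozyme) and 0.68 for Bpifa2. Among the intestinal goblet cell genes they were -1.38 for Muc2 and 2.87 for Spink4. They were 0.18 for Sftpc, 0.22 for Sftpa1 (both surfactant proteins) and 0.27 for Lamp3 among type 2 markers, and 0.20 for Aqp5 (a water channel), -0.13 for Hopx and 0.07 for Ager among type 1 markers. Among basal cell markers they were -1.06 for Ngfr, -0.37 for Trp63 and 0.55 for Aqp3, and among tuft cell markers -0.57 for Trpm5, -0.14 for Avil and 0.08 for Pou2f3. The edgeR adjusted p of these genes was 0.449 or higher. Spink4 (SE 1.69) had 3 and 13 reads in knockout libraries 1 and 2, 6 in Hez and 1 in wild type. It passed the filter on low counts only through knockout 2.

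Signals and factors that induce or restrain goblet cells were examined next, in a list of 34 genes of which 28 were tested. In knockout against wild type 0 were called in edgeR, limma-voom or, for the 22 with an adjusted p, DESeq2. The log2 folds had a median of -0.07, and 6 genes reached an unadjusted p below 0.05, against 5.18% of all genes. Il33, an alarmin of epithelial and stromal cells that starts type 2 responses, had 170 and 193 CPM in knockout libraries 1 and 2, 127 in Hez and 117 in wild type (log2 fold 0.63, edgeR adjusted p = 0.323). Il13ra1, a subunit of the interleukin-13 receptor, stood at -0.36 (adjusted p = 0.571) and the trefoil factor Tff2 at -0.94 (adjusted p = 0.726). Against wild type and Hez together, edgeR and limma-voom called 0 genes of the list. DESeq2 called 1, Il33, of the 20 with an adjusted p, where it called 0.421% of 7846 genes. Il13 itself had 0 and 13 reads in knockout libraries 1 and 2, 2 in Hez and 1 in wild type, so that knockout 2 was the single library above 2 reads. Areg, an epidermal growth factor receptor ligand, had 139 reads in knockout 2 and 58 in knockout 1, with 54 in Hez and 84 in wild type. Stat6, which relays interleukin-4 and interleukin-13 signals, had 3085 and 2798 reads in knockout libraries 1 and 2, 2942 in Hez and 2880 in wild type, and its log2 fold was 0.04. Of 7 markers of type 2 lymphocytes and eosinophils 6 were tested in knockout against wild type, with 0 called in edgeR or limma-voom, 0 at an unadjusted p below 0.05 and a median of -0.15. Prg2 (-0.71), Il4 (-0.47) and Il13 (2.58) had the smallest p of that list, each with an edgeR adjusted p = 0.996. Il13 passed the filter on low counts only through knockout 2, so its place above knockout 1 was set by the filter. Gata3, a transcription factor of type 2 lymphocytes that other cells make too, had 38 and 195 reads in knockout libraries 1 and 2, 65 in Hez and 89 in wild type.

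Of 33 further goblet cell products and inducible secretory genes, 21 were tested. In knockout against wild type 0 were called in edgeR or limma-voom. DESeq2 called 1 (Sult1d1) of the 8 with an adjusted p, where it called 0.179% of 8925 genes. An unadjusted p below 0.05 was found for 6, against 5.18% of all genes. The median fold over wild type was 0.07, with 11 above 0 and 10 below. Sult1d1, a sulfotransferase, stood at -1.34 (SE 0.217, edgeR adjusted p = 0.208), with 26.1 and 17.3 CPM in the knockout libraries, 19.2 in Hez and 55.1 in wild type. Chia1, the acidic chitinase, had 81.9 and 271 CPM in knockout libraries 1 and 2, 50.9 in Hez and 56.7 in wild type (log2 fold 1.64, edgeR adjusted p = 0.812). Retnla, a resistin-like protein induced in type 2 responses, had 1986 and 14113 reads in knockout libraries 1 and 2, 896 in Hez and 1993 in wild type. Chil4 had 2 and 859 reads in knockout libraries 1 and 2, 0 in Hez and 29 in wild type, and Capn9 had 28 reads in knockout 2 and 0 in the other 3 libraries. In 16 of these 21 genes knockout 2 lay above knockout 1, with a median difference of 0.31, against 0.00179 over all genes. Capn9, Alox12e and Spink4 are among the 16 but passed the filter on low counts only through knockout 2. Their place above knockout 1 was thus set by the filter, and the median of 0.31 includes them.

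**Figure D4:**
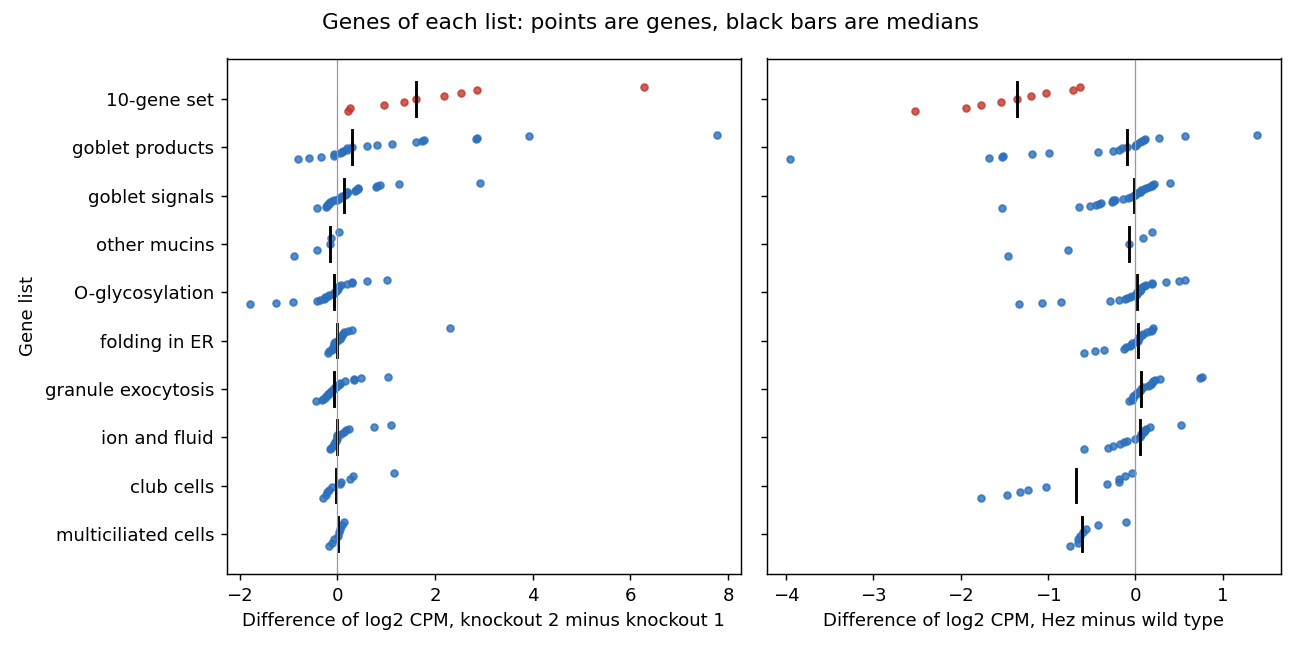
Difference of log2 CPM (prior count 2) for the tested genes of 10 lists, knockout 2 minus knockout 1 on the left and Hez minus wild type on the right; points are genes and black bars are list medians. The 10-gene set (9 tested, in red) had medians of 1.62 and -1.36, and the club and multiciliated cell lists were shifted on the right only.

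Genes that build, fold and release mucins came from 3 further lists. Of 29 O-glycosylation genes, which add the sugar chains of mucins, 24 were tested and in knockout against wild type 0 were called in edgeR, limma-voom or, for the 15 with an adjusted p, DESeq2, with 0 at an unadjusted p below 0.05 and a median fold over wild type of 0.01. St6galnac4 (0.30), Chst4 (-0.93) and B4galt4 (-0.18) had the smallest p, each with an edgeR adjusted p = 0.996. Of 19 folding genes of the endoplasmic reticulum, 0 were called in edgeR, limma-voom or, for the 15 with an adjusted p, DESeq2 against wild type. An unadjusted p below 0.05 was found for 5, against 5.18% of all genes. Their folds lay above 0 for 16 of the 19, with a median of 0.11, where 48.9% of all genes lay below 0. The chaperones Hspa5 (0.36, edgeR adjusted p = 0.445), Hsp90b1 (0.35, adjusted p = 0.509) and Calr (0.33, adjusted p = 0.677) had the smallest p. Against wild type and Hez together DESeq2 called these 3 of the 15 with an adjusted p, where it called 0.421% of 7846 genes. There edgeR and limma-voom called 0 of the folding genes. Ern2, an unfolded protein sensor of mucous epithelium, had 5 and 32 reads in knockout libraries 1 and 2, 19 in Hez and 29 in wild type, the order seen for Agr2.

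In knockout against wild type, of 22 tested genes of granule exocytosis 0 were called in edgeR, limma-voom or, for the 18 with an adjusted p, DESeq2, with 0 at an unadjusted p below 0.05 and a median of 0.07. Sytl4 (0.49), Syt7 (0.32) and Stx11 (0.31) had the smallest p. Of 15 tested genes of ion and fluid transport 0 were called in edgeR, limma-voom or, for the 9 with an adjusted p, DESeq2. An unadjusted p below 0.05 was found for 3, against 5.18% of all genes. They were the ubiquitin ligase Nedd4l (-0.37), the water channel Aqp4 (-0.51) and the chloride channel Ano1 (0.23). Cftr, the chloride channel lost in cystic fibrosis, had 250 and 290 reads in knockout libraries 1 and 2, 300 in Hez and 204 in wild type. Slc26a9, an anion transporter of the same family as Slc26a4, had 107 and 103 CPM in knockout libraries 1 and 2, 99.5 in Hez and 92.8 in wild type, with a log2 fold of 0.18. Of 5 other mucins tested 0 were called in edgeR, limma-voom or, for the 2 with an adjusted p, DESeq2, with 1 at an unadjusted p below 0.05. Muc16, a membrane mucin also made by mesothelium, had 117 and 85 reads in knockout libraries 1 and 2, 230 in Hez and 197 in wild type (log2 fold -0.95, edgeR adjusted p = 0.576). Muc2 stood at -1.38 with 6 to 25 reads, and Muc1 at 0.10 with 4102 to 4746 reads.

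The genes nearest to Muc5b in pattern were found by the Euclidean distance of log2 CPM, centred on each gene's mean, over the 4 libraries and 12085 genes with a mean of at least 5 CPM over these libraries. Tmc5 was nearest, at a distance of 0.212, followed by H2-Q6 (0.313), Scgb3a1 (0.320), Serpina9 (0.345) and Igdcc4 (0.418). Outside wild type, Serpina9 and Igdcc4 lay below 5 CPM in every library, and Tmc5 stood at 4.79, 5.60 and 2.54 CPM. Tmc5, Serpina9 and Igdcc4 thus reached the mean of 5 CPM only through wild type, where they are high. Scgb3a1, a secretoglobin of airway secretory cells, had 245 and 255.04 CPM in the knockout libraries, 189 in Hez and 522 in wild type. H2-Q6 belongs to a family of near-identical genes that can share reads. The same measure for Clca1, added after its values were seen, gave Fer1l6 (1.94), Chil4 (2.04), Fcgbp (2.65), Retnla (2.65) and Agr2 (3.20). Of these, Fer1l6, Chil4 and Agr2 reached that mean only through knockout 2, with means of 3.69, 0.637 and 4.01 CPM over the other 3 libraries. With 4 libraries, many genes have like patterns, and likeness says nothing of shared control.

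**Figure D5:**
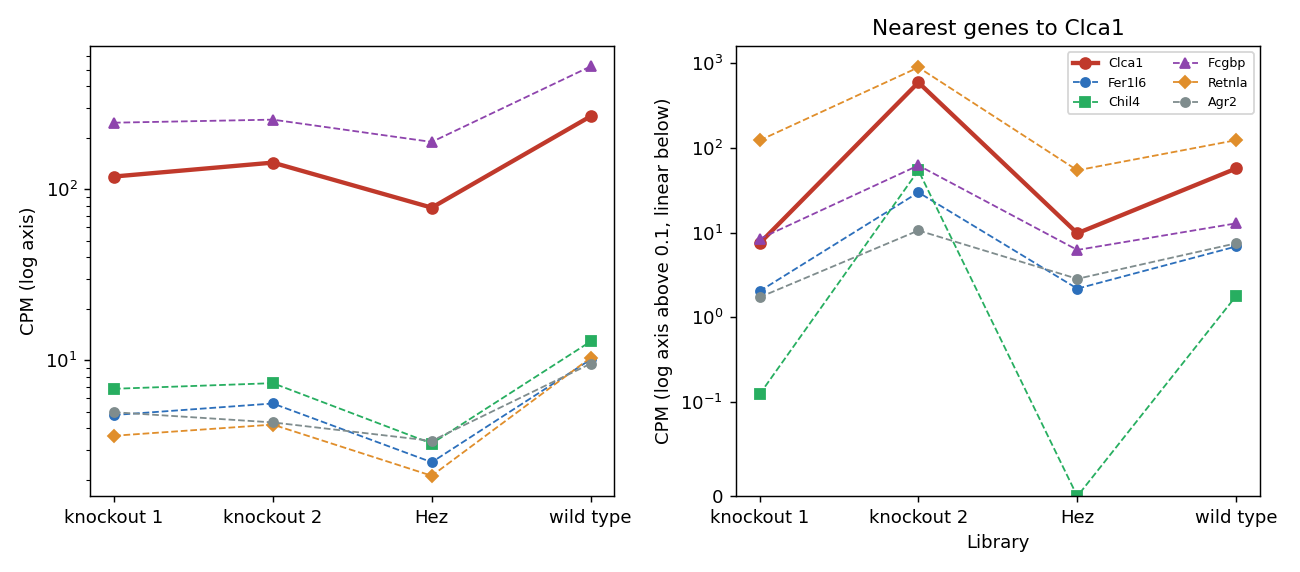
Level in CPM in each library of Muc5b (left, log axis) and Clca1 (right, log axis above 0.1 CPM and linear below) in bold red, with the 5 nearest genes of each as dashed lines; lines join libraries only to guide the eye. The genes on the left are highest in wild type and lowest in Hez, and those on the right are highest in knockout 2.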

How the data were processed

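The authors deposited raw read counts per gene and FPKM values, per the file headers. All 66024 FPKM values above 0 equal the deposited read count divided by library total and gene length, within a relative tolerance of 1e-06. Libraries were made with a TruSeq kit, per the labels' protocols, and the submitters' processing notes name GRCm39. Aligner, counter and strand: not given in the sources used here; overlapping genes and near-identical copies may share reads.

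Groups follow the genotype labels. The numbers of the knockout libraries follow the order of deposit, not a label, and pair nothing. Litter and pooling are not given, so what part of the spread behind the p-values lies between animals is not known. Every pair of libraries differed by more than counting error (chi-square per gene 8.00 to 11.7). Counts were scaled by TMM (0.993 to 1.01), filtered with filterByExpr (minimum count 10) and tested two-sided with the edgeR 4.0.16 quasi-likelihood test under R 4.3.3, in 3 groups (1 residual degree of freedom) or, for wild type and Hez together, 2 groups (2). P-values were adjusted by Benjamini-Hochberg over all genes, with a threshold of 0.05. The standard error of a log2 fold is that fold over the root of its F. Hez against wild type has no test. Alternatives used DESeq2 1.42.0, limma 3.58.1, other scalings and filters, log2 FPKM with pseudocounts of 0.5, 0.1 and 1, and each library left out.

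The 10 genes and the 16 accompanying lists were chosen with earlier results of these data known. All 10 genes are named, and of each list the 3 with the smallest p; further list genes were named after their values were seen. Intervals are 95% exact Poisson and, like floors, cover counting error only.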

Additional observations from a re-analysis of the deposited data

How the results depend on the processing

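The count of genes passing in knockout against wild type was 8, and 16 with DESeq2, 4 with no filter, 4 at a mean of 10 CPM or more, 1 with limma on log2 FPKM at each pseudocount and 0 with no FPKM filter. Of the 9 goblet cell genes 1, Muc5b, passed with DESeq2 size factors, DESeq2, limma-voom and without Hez (0 otherwise). Against Hez the count was 1, and 7 with DESeq2 and 0 with limma on log2 FPKM at pseudocounts of 0.5 and 0.1, and 0 with no FPKM filter. Against both together it was 2, and 33 with DESeq2, 1 at a mean of 10 CPM or more, with limma-voom and with FPKM at pseudocounts of 0.5 and 0.1, and 0 at a pseudocount of 1 or with no FPKM filter. Leaving out each library gave 1 to 107 genes (107 without knockout 1, 24 without knockout 2, 8 without Hez, 1 without wild type) and 0 to 3 goblet cell genes.

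With 1 knockout library left out, folds against wild type or Hez alone have no residual degrees of freedom and no test. Counting signs without each knockout library, an alternative chosen after seeing the data, gave 2 to 8 of 9 folds below 0 against wild type and 0 to 3 against Hez. Signs turned with the library left out. Against wild type the log2 folds ran from -2.94 to 3.37 for Clca1, -2.11 to 0.50 for Agr2, -1.70 to 0.028 for Spdef, -0.996 to 0.10 for Foxa3, -0.61 to 2.27 for Fcgbp and -0.27 to 1.13 for Muc5ac. Against Hez they ran from -0.40 to 5.91 for Clca1, -0.72 to 1.89 for Agr2 and -0.43 to 1.29 for Spdef. Against both together they ran from -2.16 to 4.92 for Clca1, -1.58 to 1.10 for Agr2, -1.20 to 0.67 for Spdef, -0.35 to 1.501 for Foxa3, -0.18 to 2.70 for Fcgbp, -1.03 to 0.74 for Muc5b and -0.96 to 1.03 for Tmc5. In that comparison Agr2 stood at 0.25, but at -0.12 with limma-voom and at -0.052 (with and without the filter), -0.10 and -0.014 with FPKM at pseudocounts of 0.5, 0.1 and 1, and Tmc5 stood at -0.29, but at 0.033 with limma-voom; the cause was not tested. Of 318 values of single genes, 25 turned sign. All 9 goblet cell genes stayed lower in Hez than in wild type by more than 1.5-fold at prior counts of 1 and 0.5 and with library totals. No paired analysis was possible because the labels carry no replicate numbers (those of the knockout libraries follow the order of deposit) and 2 groups hold 1 library each. Spdef, Foxa3 and Itln1 are limited by depth.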

Other observations

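Of the genes read for eosinophils, Prg2 and Epx had their lowest counts in knockout 2, whereas Siglecf and Rnase2a did not. Prg2, the eosinophil major basic protein, had 53 reads in knockout 2 and 139 in knockout 1, with 169 in Hez and 158 in wild type. Epx, eosinophil peroxidase, had 17 reads in knockout 2 and 37 in knockout 1, with 27 in Hez and 43 in wild type. Siglecf, a surface receptor of eosinophils and alveolar macrophages, had 257 reads in knockout 2 and 312 in knockout 1, with 215 in Hez and 254 in wild type. Rnase2a, of the eosinophil-associated ribonuclease family, had 60 reads in knockout 2 and 0 in knockout 1, with 1 in Hez and 2 in wild type. It passed the filter on low counts only through knockout 2. Il5, a cytokine of eosinophil growth, had 0 reads in both knockout libraries and in Hez and 5 in wild type. These genes were singled out after their values were seen, and the edgeR adjusted p of knockout against wild type was 0.996 for each of Prg2, Epx and Siglecf.

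Among the genes with the widest difference between the knockout libraries were also Scin, an actin-severing protein, with 128 reads in knockout 2 and 13 in knockout 1, and Pla2g4c, a phospholipase, with 113 reads in knockout 2 and 15 in knockout 1. Hez had 8 reads of Scin and 16 of Pla2g4c, and wild type had 22 of Scin and 13 of Pla2g4c. Gp2, a glycoprotein of secretory epithelium, had 153 reads in knockout 2 and 44 in knockout 1, with 37 in Hez and 120 in wild type. Within the transcription factors of the list, Foxa2, which restrains goblet cell differentiation in mice, had 969 reads in knockout 2 and 737 in knockout 1, with 775 in Hez and 765 in wild type. Its log2 fold over wild type was 0.17 (edgeR adjusted p = 0.996).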
